A study of Caenorhabditis elegans with 5 samples.

Results

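Transcripts of 10 genes of the endoplasmic reticulum (ER) unfolded protein response were followed in whole Caenorhabditis elegans exposed to bisphenol TMC (BPTMC), a bisphenol. The genes were taken by symbol from the count tables: the chaperone genes hsp-3, hsp-4, crt-1, enpl-1 and dnj-7, the stress sensor genes ire-1, pek-1 and atf-6, the transcription factor gene xbp-1 and the lipid enzyme gene ckb-2. All 10 had a row among the 45251 genes of the tables, and all 10 passed the filter on low counts that 14238 genes passed. The tested worms were wild-type N2 animals, the standard laboratory strain, between the L4 larval stage and adulthood, kept for 24 h on agar plates holding 1 mM BPTMC (3 libraries). The control worms were N2 animals of the same stage kept for 24 h on plates with dimethyl sulfoxide (DMSO), a common solvent that the series names as its control, for which the labels also give 1 mM (2 libraries). Both groups were grown at 20 °C on Escherichia coli OP50, and each library was a 3' tag library made from total RNA of whole animals. Nothing in the labels ties the replicates to separate cultures, and the p-values therefore reflect only how much these libraries differ, which may be technical variation.

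The ER folds secreted and membrane proteins. When unfolded proteins build up there, the membrane sensors IRE-1, PEK-1 and ATF-6 signal to the nucleus and to the translation machinery. IRE-1 cuts the xbp-1 messenger RNA, which is then rejoined in a spliced form that encodes the active transcription factor XBP-1, and PEK-1 phosphorylates the initiation factor eIF2 alpha, which lowers protein synthesis. Transcription of ER chaperone genes then goes up, and in this worm the hsp-4 gene is widely used as a reporter of the response. A count per gene adds up spliced and unspliced xbp-1 messages, so the files show the amount of xbp-1 message and not its splicing.

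Libraries held 16531114 to 23579588 counts with BPTMC and 19819975 to 24362712 with DMSO. In a principal component analysis the leading axis (54.9% of variance) did not separate the groups. BPTMC replicates 1, 2 and 3 scored -108, 27.4 and -26.3, and DMSO replicates 1 and 2 scored 19.1 and 87.9. BPTMC replicate 2 lay between the DMSO libraries. At the ends of the axis lay BPTMC replicate 1 and DMSO replicate 2. Values without each of these libraries are given where they turn a direction. Markers of intestine, yolk, germline, sperm, hypodermis, muscle and neurons were all detected, with none at 0 reads in all libraries. Over 31 major sperm protein genes the summed level was 55.5 to 448 CPM (counts scaled to the library size, normalised between libraries by TMM) with BPTMC and 42.3 to 98.1 CPM with DMSO, and over 8 germline and oocyte genes it was 404 to 1827 CPM with BPTMC and 1081 to 2452 CPM with DMSO.

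None of the 10 genes passed the test of BPTMC against DMSO in either direction. In edgeR's quasi-likelihood fit, adjusted by Benjamini-Hochberg over all genes, 0 of the 10 were called higher at an adjusted p under 0.05, where 0.105% of all tested genes were, and 0 were called lower, where 0% of all tested genes were. At an unadjusted p under 0.05 the counts were also 0 higher and 0 lower, against 7% higher and 0.4% lower among all tested genes. DESeq2 called 0 of the 10 in either direction, against 1.67% higher and 0.0211% lower among all tested genes, and limma-voom called 0, against 0.00702% higher and 0% lower. The smallest edgeR adjusted p among the 10 was 0.834. Of the 10 log2 fold changes, 6 were positive and 4 negative, where 54.5% of all tested genes were negative. The median was 0.16 beside -0.09 over all tested genes. Without DMSO replicate 1, 4 were positive and 6 negative, with a median of -0.08. Without BPTMC replicate 1, and also without DMSO replicate 2, 8 were positive and 2 negative. The share and median over all tested genes include genes with few reads and were not matched to the 10 for level. In RNA from whole animals, fewer cells that use a gene and less RNA per cell cannot be told apart.

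**Figure D1:**
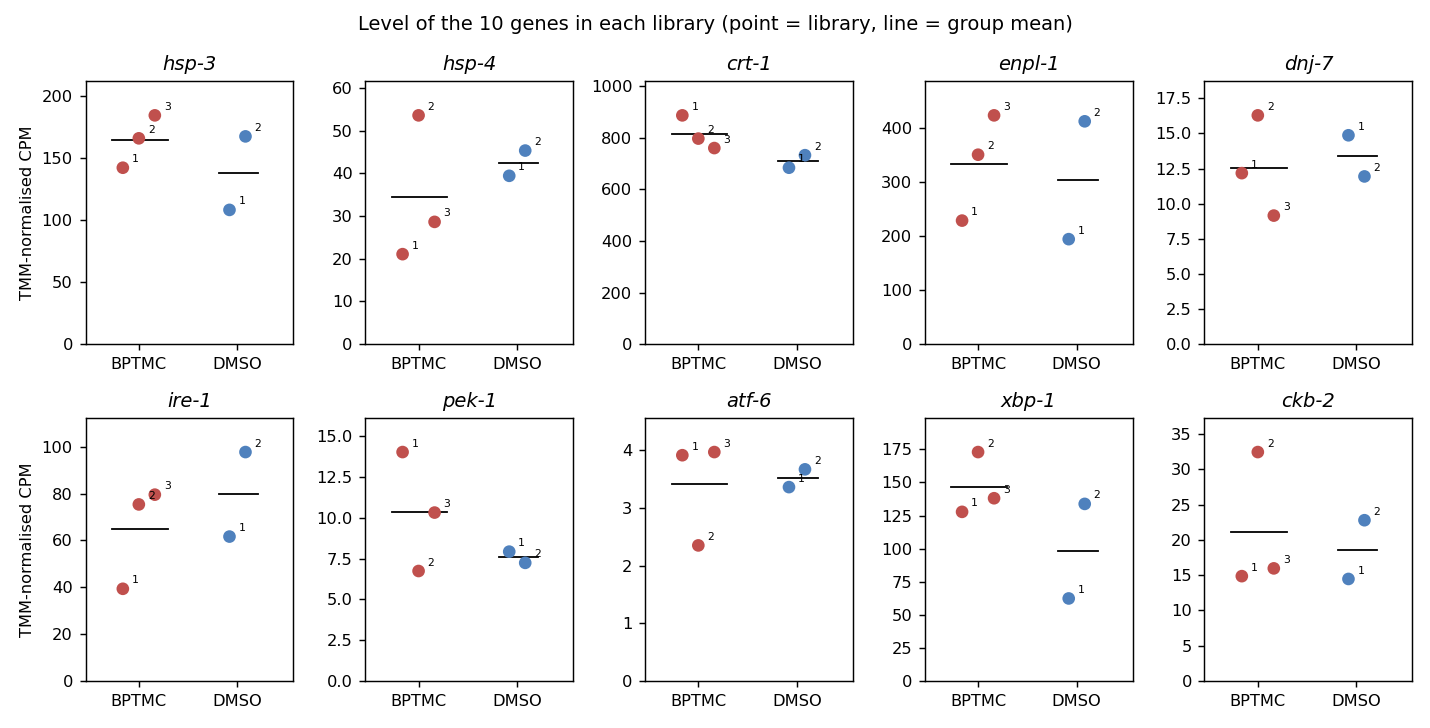
TMM-normalised CPM of each of the 10 genes in the 3 BPTMC libraries (red, left) and the 2 DMSO libraries (blue, right), with the replicate number beside each point and the group mean as a line. The groups overlap in 9 of the 10 panels; in the crt-1 panel all 3 BPTMC libraries, at 761 to 887 CPM, lie above the DMSO libraries at 684 and 733 CPM.

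hsp-4 (WBGene00002008) encodes a BiP-type Hsp70 chaperone of the ER lumen and lies on chromosome II from 7350112 to 7352645 on the minus strand (WBcel235, Ensembl annotation). hsp-4 stood at 21.1, 53.5 and 28.6 CPM in BPTMC replicates 1, 2 and 3, against 39.4 and 45.3 CPM in DMSO replicates 1 and 2. BPTMC replicate 2 was the highest of the 5 libraries and BPTMC replicate 1 the lowest, so the DMSO values lay inside the BPTMC range. The mean was 34.4 ± 17.0 CPM with BPTMC (SD, n = 3) and 42.4 ± 4.18 CPM with DMSO (SD, n = 2). The fitted log2 fold change was -0.30 ± 0.46 (SE), with a 95% interval of -1.36 to 0.76 and an edgeR adjusted p of 0.842. Without BPTMC replicate 1 it was 0.03.

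hsp-3 (WBGene00002007, chromosome X, 6089028 to 6092124, minus strand) encodes the other BiP-type chaperone of the worm. hsp-3 stood at 142, 166 and 184 CPM in BPTMC replicates 1, 2 and 3, against 108 and 167 CPM in DMSO replicates 1 and 2. DMSO replicate 1 was the lowest library and DMSO replicate 2 lay between BPTMC replicates 2 and 3. For hsp-3 the log2 fold change was 0.25 ± 0.37 (SE), with a 95% interval of -0.59 to 1.09 and an edgeR adjusted p of 0.842. Without DMSO replicate 1 it was -0.04. hsp-3 and hsp-4 are related genes, and how the authors' counting treated reads that match both genes is not stated in the labels.

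The ratio of hsp-4 to hsp-3 counts within a library does not depend on the scaling between libraries. It was 0.148, 0.323 and 0.155 in BPTMC replicates 1, 2 and 3, against 0.364 and 0.271 in DMSO replicates 1 and 2. BPTMC replicates 1 and 3 lay below both DMSO libraries, and BPTMC replicate 2 lay between them. The mean log2 ratio was -2.36 ± 0.63 with BPTMC (SD, n = 3) and -1.67 ± 0.30 with DMSO (SD, n = 2), a difference of -0.69, with p = 0.3 in an exact two-sided permutation test over the 10 arrangements of the libraries. The smallest p this design allows is 0.1.

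crt-1 (WBGene00000802, chromosome V, 6098992 to 6100542, minus strand) encodes calreticulin, a calcium-binding lectin chaperone. crt-1 stood at 887, 797 and 761 CPM in BPTMC replicates 1, 2 and 3, against 684 and 733 CPM in DMSO replicates 1 and 2. All BPTMC libraries lay above both DMSO libraries. This was the case for 1 of the 10 genes and for 13.4% of all tested genes; the opposite order held for 0 of the 10 and for 9.96% of all tested genes. With scaling by total counts the crt-1 groups overlapped. The mean was 815 ± 65.3 CPM with BPTMC (SD, n = 3) and 709 ± 34.3 CPM with DMSO (SD, n = 2), and the log2 fold change of 0.20 ± 0.33 (SE) had an edgeR adjusted p of 0.844. Its 95% interval, -0.56 to 0.96, was the only interval among the 10 genes that reached neither 2-fold higher nor 2-fold lower.

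crt-1 was also the steadiest of the 10 genes. The highest library exceeded the lowest 1.30-fold over all 5 libraries, and the SD within groups was 0.10 on the log2 scale, against a median of 0.49 for all tested genes. Its annotated exons share at most 92 bases with those of smut-1 on the opposite strand, which had 8539 to 13118 counts per library. Whether the counting used strand is not stated in the labels. For smut-1 itself the log2 fold change was 0.14 ± 0.35 (SE). The part of smut-1 reads in the crt-1 counts was not tested.

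enpl-1 (WBGene00011480, chromosome IV, 11119298 to 11123155, plus strand) encodes endoplasmin, the Hsp90-type chaperone of the ER. enpl-1 stood at 228, 350 and 422 CPM in BPTMC replicates 1, 2 and 3, against 194 and 411 CPM in DMSO replicates 1 and 2. The replicate 1 libraries of both groups were the lowest, and the DMSO libraries lay further from each other, at 2.12-fold, than the group means did. For enpl-1 the log2 fold change was 0.14 ± 0.45 (SE), with a 95% interval of -0.89 to 1.17 and an edgeR adjusted p of 0.905. Leaving out DMSO replicate 1 gave -0.31, and leaving out BPTMC replicate 3 gave -0.01. The exons of enpl-1 share at most 23 bases with those of spo-11 on the opposite strand, which had 909 to 1269 counts per library.

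dnj-7 (WBGene00001025, chromosome X, 7194564 to 7198291, plus strand) encodes a DnaJ-domain co-chaperone, the counterpart of the mammalian p58IPK protein. dnj-7 stood at 12.2, 16.3 and 9.15 CPM in BPTMC replicates 1, 2 and 3, against 14.9 and 11.9 CPM in DMSO replicates 1 and 2. The DMSO values again lay inside the BPTMC range. Its log2 fold change was -0.10 ± 0.42 (SE), with a 95% interval of -1.06 to 0.87 and an edgeR adjusted p of 0.930. It was 0.16 without BPTMC replicate 3 and 0.06 without DMSO replicate 1.

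Among the sensor genes, ire-1 (WBGene00002147, chromosome II, 8112243 to 8124910, minus strand) encodes the kinase and endoribonuclease that cuts xbp-1 messages. ire-1 stood at 39.4, 75.4 and 79.6 CPM in BPTMC replicates 1, 2 and 3, against 61.7 and 97.8 CPM in DMSO replicates 1 and 2. BPTMC replicate 1 was the lowest library and DMSO replicate 2 the highest, at 2.48 times its level. For ire-1 the log2 fold change was -0.30 ± 0.43 (SE), with a 95% interval of -1.29 to 0.69 and an edgeR adjusted p of 0.841. It was 0.06 without BPTMC replicate 1 and 0.07 without DMSO replicate 2. In an order noticed after the values were seen, the libraries ranked for ire-1 as they did for the summed germline and oocyte markers, which stood at 404, 1630 and 1827 CPM in BPTMC replicates 1, 2 and 3, against 1081 and 2452 CPM in DMSO replicates 1 and 2. The part of germline content in the ire-1 values was not tested. The exons of ire-1 share at most 4 bases with those of unc-105 on the opposite strand, which had 17 to 41 counts per library.

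pek-1 (WBGene00003970, chromosome X, 11410176 to 11414887, minus strand) encodes the counterpart of mammalian PERK, the eIF2 alpha kinase of the ER membrane. pek-1 stood at 14.03, 6.74 and 10.3 CPM in BPTMC replicates 1, 2 and 3, against 7.93 and 7.24 CPM in DMSO replicates 1 and 2. BPTMC replicates 1 and 3 lay above both DMSO libraries and BPTMC replicate 2 below both. For pek-1 the log2 fold change was 0.45 ± 0.46 (SE), with a 95% interval of -0.60 to 1.50 and an edgeR adjusted p of 0.834, and it was positive in all 14 alternatives, between 0.24 and 0.75. The 2 BPTMC libraries with the most pek-1 were also those with the most major sperm protein messages, at 448 CPM in replicate 1 and 293 CPM in replicate 3, beside 55.5 CPM in BPTMC replicate 2 and 98.1 and 42.3 CPM in DMSO replicates 1 and 2. Among the BPTMC libraries the summed intestine markers (4547, 2006 and 2461 CPM in replicates 1, 2 and 3) and yolk markers (26053, 14524 and 15703 CPM) were also lowest in replicate 2. In DMSO replicates 1 and 2 the intestine sum was 2881 and 1869 CPM and the yolk sum 13894 and 16364 CPM. DMSO replicate 1 for intestine and DMSO replicate 2 for yolk lay above BPTMC replicate 3, unlike for pek-1. These relations were noticed after the values were seen, and the part of sperm or other tissue content in the pek-1 values was not tested.

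atf-6 (WBGene00000222, chromosome X, 12480948 to 12484904, plus strand) encodes the membrane-tethered transcription factor of the response. It had the fewest reads of the 10 genes, with 80, 46 and 78 counts in BPTMC replicates 1, 2 and 3, against 75 and 78 counts in DMSO replicates 1 and 2. The lowest of these, 46, has an exact 95% Poisson interval of 33.7 to 61.4 counts, which covers counting error only. At 3.91, 2.35 and 3.97 CPM in BPTMC replicates 1, 2 and 3 and 3.36 and 3.67 CPM in DMSO replicates 1 and 2, only BPTMC replicate 2 stood apart from the other 4 libraries. The fitted log2 fold change was -0.04 ± 0.48 (SE), with a 95% interval of -1.14 to 1.06 and an edgeR adjusted p of 0.975. Without BPTMC replicate 2 it was 0.21, and without DMSO replicate 2 it was 0.05.

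xbp-1 (WBGene00006959, chromosome III, 4193809 to 4195358, plus strand) encodes the bZIP transcription factor made from the message that IRE-1 cuts. xbp-1 stood at 128, 173 and 138 CPM in BPTMC replicates 1, 2 and 3, against 62.3 and 134 CPM in DMSO replicates 1 and 2. DMSO replicate 1 was the lowest library, and DMSO replicate 2 lay between BPTMC replicates 1 and 3. The mean was 146 ± 23.7 CPM with BPTMC (SD, n = 3) and 98.1 ± 50.5 CPM with DMSO (SD, n = 2). The log2 fold change of 0.58 ± 0.43 (SE) was the largest of the 10 genes and had the smallest unadjusted p, 0.212, with an edgeR adjusted p of 0.834 and a 95% interval of -0.40 to 1.55. It moved most with the DMSO libraries: leaving out DMSO replicate 1 gave 0.12, and leaving out DMSO replicate 2 gave 1.25.

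ckb-2 (WBGene00000512, chromosome III, 4367949 to 4370160, plus strand) encodes a choline kinase family protein, of the pathway that makes the membrane lipid phosphatidylcholine. ckb-2 stood at 14.9, 32.5 and 15.97 CPM in BPTMC replicates 1, 2 and 3, against 14.5 and 22.8 CPM in DMSO replicates 1 and 2. BPTMC replicate 2 was the highest library, and the other 2 BPTMC libraries lay close to DMSO replicate 1. The log2 fold change was 0.18 ± 0.48 (SE), with a 95% interval of -0.92 to 1.28 and an edgeR adjusted p of 0.890. It was -0.24 without BPTMC replicate 2 and -0.12 without DMSO replicate 1.

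**Figure D2:**
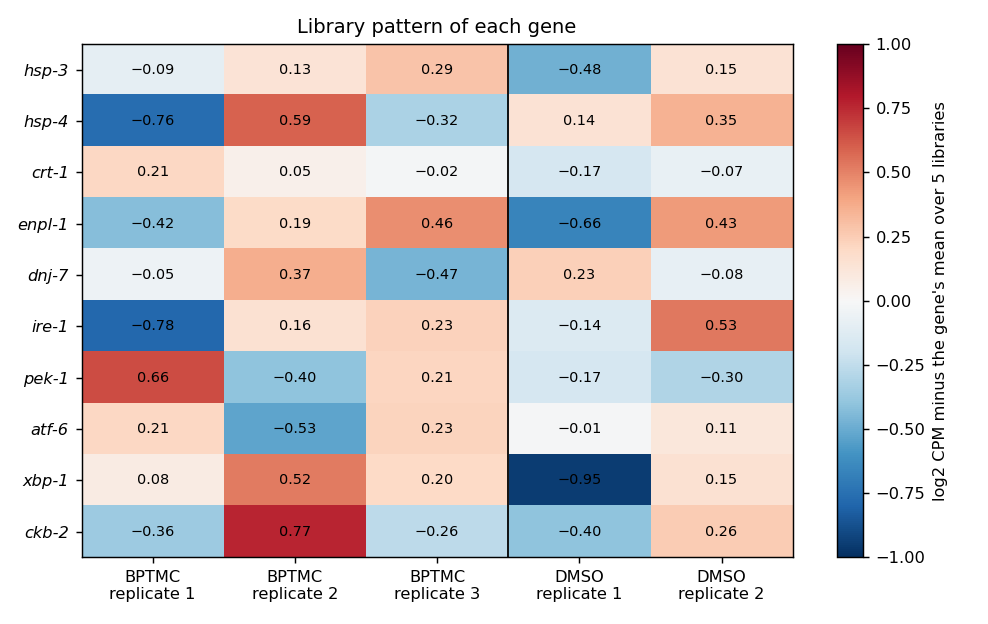
Log2 CPM of each gene in each library minus that gene's mean over the 5 libraries, with BPTMC libraries left of the line and DMSO libraries right of it; red is above and blue below the gene's mean. DMSO replicate 1 held the lowest value of 5 genes, down to -0.95 for xbp-1, and BPTMC replicate 2 the highest value of 4, up to 0.77 for ckb-2.

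No library was the highest or the lowest for all 10 genes, as the map of centred levels shows. DMSO replicate 1 was the lowest library for 5 genes, hsp-3, crt-1, enpl-1, xbp-1 and ckb-2, and the highest for 0. BPTMC replicate 2 was the highest library for hsp-4, dnj-7, xbp-1 and ckb-2 and the lowest for pek-1 and atf-6. BPTMC replicate 1 was the lowest library for hsp-4 and ire-1 and the highest for crt-1 and pek-1. Within groups the SD on the log2 scale ran from 0.10 for crt-1 and 0.30 for hsp-3 to 0.56 for hsp-4 and 0.58 for enpl-1, and the values of hsp-4 and enpl-1 lay at the percentiles 57.9 and 60.2 of all tested genes. crt-1 lay at percentile 1.33, and the other 9 genes lay between the percentiles 21.7 and 60.2.

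**Figure D3:**
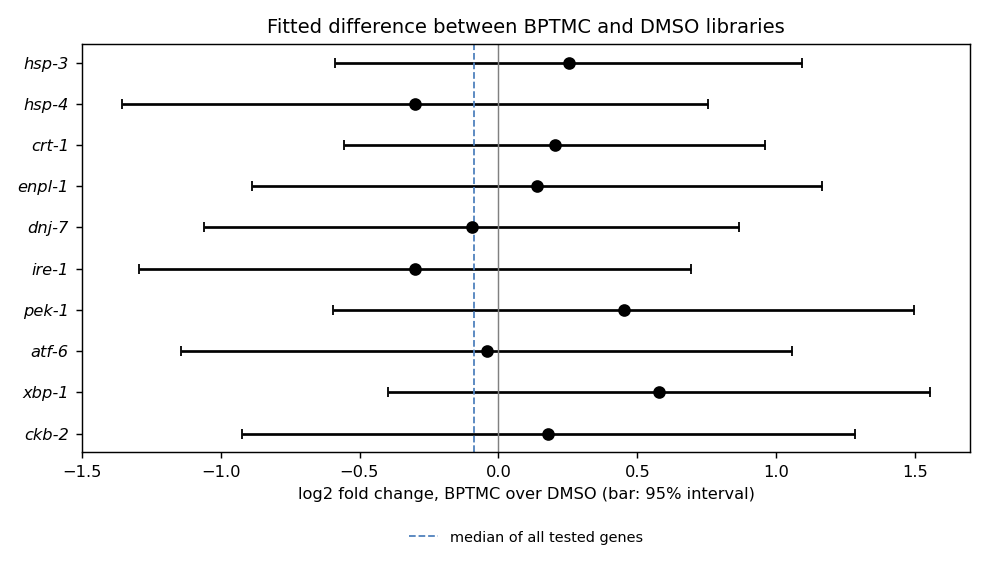
Fitted log2 fold change of BPTMC over DMSO for each of the 10 genes (points) with its 95% interval (bars) and the median over all tested genes, -0.09 (dashed line). All 10 intervals hold 0; 6 reach 2-fold higher and 4 reach 2-fold lower, atf-6 among both.

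All 10 intervals held 0, and 6 reached a 2-fold higher level (hsp-3, enpl-1, pek-1, atf-6, xbp-1 and ckb-2) while 4 reached a 2-fold lower level (hsp-4, dnj-7, ire-1 and atf-6). For hsp-4 the upper bound of the fold was 1.69 and for hsp-3 it was 2.13. These intervals are not adjusted for the number of genes, and a value that did not pass the test does not show that the gene was unchanged.

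The genes whose libraries varied most like hsp-4 were timm-17B.1, lid-1 and C09D4.4, with root mean square differences of 0.056, 0.057 and 0.058 in centred log2 CPM over the 5 libraries, chosen among 6998 tested genes with a mean of at least 10 CPM. The median difference from hsp-4 over these genes was 0.51. For xbp-1 the closest were T27E4.5, fip-2 and smf-2, with differences of 0.070, 0.086 and 0.111, where the median was 0.70. fip-2 stood at 70.6, 94.7 and 79.4 CPM in BPTMC replicates 1, 2 and 3, against 40.0 and 80.8 CPM in DMSO replicates 1 and 2. None of these 6 genes was among the other ER genes described next.

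Other genes of the ER were read from the same fit, in 8 lists by function with 88 symbols, of which 79 had a row and 65 were tested. edgeR called 0 of the 65 over all genes in either direction, DESeq2 and limma-voom called 0, and an unadjusted p under 0.05 was reached by 2 higher and 0 lower genes, where 7% of all tested genes were higher and 0.4% lower at that level and DESeq2 called 1.67% higher and 0.0211% lower. Of the 65 log2 fold changes 16 were positive and 49 negative, where 54.5% of all tested genes were negative. The median was -0.23 beside -0.09 over all tested genes. Without BPTMC replicate 1, 35 were positive and 30 negative, with a median of 0.01 beside 0.02 over all tested genes. Without DMSO replicate 2, where 70 were tested, 38 were positive and 32 negative, with a median of 0.06 beside 0.12. The median was -0.34 without BPTMC replicate 2, -0.12 without BPTMC replicate 3 and -0.35 without DMSO replicate 1. All tested genes include genes with few reads, and no background was matched to these lists for level. In a refit of the 9037 genes with at least 5 CPM in 2 or more libraries, the all-gene median was -0.12. The scale differed there, with hsp-3 at 0.38 and crt-1 at 0.34 beside 0.25 and 0.20 in the main fit. List medians were not taken in that refit.

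ER-associated degradation, which sends misfolded proteins back to the cytosol for the proteasome, had 13 tested genes, and the log2 fold changes of all 13 were negative, from -0.61 to -0.16, with a median of -0.32, where 54.5% of all tested genes were negative. The share over all tested genes was not matched to this list for level. None of the 13 passed the test, and 0 had an unadjusted p under 0.05. ufd-1, part of the adaptor that links the CDC-48 segregase to its substrates, stood at 42.6, 53.0 and 63.0 CPM in BPTMC replicates 1, 2 and 3, against 73.6 and 79.6 CPM in DMSO replicates 1 and 2. Its log2 fold change was -0.53 ± 0.36 (SE, edgeR adjusted p = 0.823). npl-4.2, of the same adaptor, had -0.43 ± 0.35. In 5 of the 13 genes every BPTMC library lay below both DMSO libraries, where 9.96% of all tested genes did. The count of negative values, taken with each library left out after the data were seen, was 9 of 13 without BPTMC replicate 1 (median -0.08) and 7 of 13 without DMSO replicate 2 (median -0.09), and 13 of 13 without each of the other 3 libraries in turn. The summed germline and oocyte markers were lowest in BPTMC replicate 1 and highest in DMSO replicate 2, and the median of their log2 fold changes was -0.46. cdc-48.1, chosen after its values were seen, encodes a form of the CDC-48 segregase and stood at 47.9, 188 and 247 CPM in BPTMC replicates 1, 2 and 3, against 145 and 347 CPM in DMSO replicates 1 and 2, the same order of libraries as the summed germline and oocyte markers. sel-11, marc-6, cdc-48.2, ubxn-4 and ufd-2 had that order too. The 5 genes with separated groups did not, as DMSO replicate 1 lay above every BPTMC library in them, and neither did sel-1 and hrdl-1. The part of germline content in this list was not tested.

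Translocation, signal peptidase and N-glycosylation genes, which bring new proteins into the ER and attach sugars, gave 13 negative values of 14 tested (14 with RLE scaling), with a median of -0.33. None of them passed the test. ostb-1, a subunit of the oligosaccharyltransferase, stood at 82.6, 117 and 78.5 CPM in BPTMC replicates 1, 2 and 3, against 142 and 151 CPM in DMSO replicates 1 and 2. All BPTMC libraries lay below both DMSO libraries, and the log2 fold change was -0.66 ± 0.36 (SE, edgeR adjusted p = 0.751). spcs-2, a signal peptidase subunit, had -0.49 ± 0.34. In 3 of the 14 the groups were separated in this direction, as in 9.96% of all tested genes, and 54.5% of all tested genes had negative values. These shares were not matched to the list for level. Without BPTMC replicate 1, and also without DMSO replicate 2, 9 of the 14 were negative.

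No folding gene outside the 10 passed the test either. Oxidative folding, the forming of disulfide bonds, had a median of -0.12 over 7 tested genes, with C14B9.2 at 0.27 ± 0.37 and pdi-6, a protein disulfide isomerase, at -0.18 ± 0.37 (log2 fold change ± SE). Without BPTMC replicate 1 all 7 were positive, with a median of 0.13. Without DMSO replicate 2 there were 6 positive and 1 negative, with a median of 0.09. Other ER chaperones and lectins had a median of -0.04 over 8 genes. It was 0.15 without BPTMC replicate 1, 0.13 without BPTMC replicate 3 and -0.11 without DMSO replicate 2. cnx-1, calnexin, the membrane-bound relative of calreticulin, stood at 71.3, 83.2 and 72.0 CPM in BPTMC replicates 1, 2 and 3, against 91.8 and 86.3 CPM in DMSO replicates 1 and 2. Its BPTMC libraries lay below both DMSO libraries, as in 9.96% of all tested genes, whereas those of crt-1 lay above, as in 13.4%. Neither gene passed the test, and the difference between them was not tested. uggt-1, which tags misfolded glycoproteins for another round of folding, had a log2 fold change of -0.44 ± 0.41.

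The eIF2 alpha and integrated stress response list, which is not limited to genes downstream of PEK-1, had 5 tested genes, 1 positive and 4 negative. The positive one was atf-4, the transcription factor whose translation rises when eIF2 alpha is phosphorylated. Without BPTMC replicate 1 the list had 3 positive and 2 negative values. atf-4 stood at 45.1, 24.1 and 28.6 CPM in BPTMC replicates 1, 2 and 3, against 20.2 and 21.9 CPM in DMSO replicates 1 and 2. All BPTMC libraries lay above both DMSO libraries, as in 13.4% of all tested genes. The log2 fold change was 0.63 ± 0.42 (SE, edgeR adjusted p = 0.823). gcn-2, the eIF2 alpha kinase that senses amino acid shortage, had -0.53 ± 0.51.

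The list for RNA ligation and IRE-1 partners had 4 tested genes, of which tag-335 was placed there without certain knowledge of such a role. Listing does not establish that a gene acts with IRE-1, and this holds for tir-1 as well. rtcb-1, the RNA ligase that rejoins the cut xbp-1 message, stood at 21.8, 31.6 and 26.3 CPM in BPTMC replicates 1, 2 and 3, against 33.4 and 46.9 CPM in DMSO replicates 1 and 2. Its groups did not overlap, with BPTMC lower, as in 9.96% of all tested genes. The log2 fold change was -0.59 ± 0.38 (SE, edgeR adjusted p = 0.817). tir-1, an adaptor of p38 immune signalling, had 1.12 ± 0.61 (edgeR adjusted p = 0.752), with BPTMC replicate 2, at 5.10 CPM, below both DMSO libraries.

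Among 13 tested genes of phosphatidylcholine and membrane lipid synthesis, the pathway of ckb-2, 2 had an unadjusted p under 0.05 and both were higher, where 7% of all tested genes were. pmt-1, a phosphoethanolamine methyltransferase that starts the methylation route to phosphatidylcholine, stood at 389, 113 and 219 CPM in BPTMC replicates 1, 2 and 3, against 89.9 and 74.3 CPM in DMSO replicates 1 and 2. sbp-1, the SREBP-type regulator of lipid genes, stood at 17.6, 10.1 and 22.7 CPM in BPTMC replicates 1, 2 and 3, against 6.13 and 8.74 CPM in DMSO replicates 1 and 2. In both genes every BPTMC library lay above both DMSO libraries, as in 13.4% of all tested genes. For pmt-1 the BPTMC libraries stood in the order of their major sperm protein messages (448, 55.5 and 293 CPM in replicates 1, 2 and 3). The summed intestine markers (4547, 2006 and 2461 CPM) and yolk markers (26053, 14524 and 15703 CPM) gave that order too. With DMSO the sperm sum was 98.1 and 42.3 CPM in replicates 1 and 2, above and below that of BPTMC replicate 2. The intestine sum was 2881 and 1869 CPM and the yolk sum 13894 and 16364 CPM in DMSO replicates 1 and 2. DMSO replicate 1 for intestine and DMSO replicate 2 for yolk lay above BPTMC replicates 2 and 3, unlike for pmt-1. The part of tissue content in the pmt-1 values was not tested. The log2 fold changes were 1.55 ± 0.54 for pmt-1 and 1.17 ± 0.48 for sbp-1 (SE), and neither passed the adjustment over all genes (edgeR adjusted p = 0.563 and 0.644). The list as a whole had 7 positive and 6 negative values and a median of 0.01, which RLE scaling turned to 5 positive, 8 negative and -0.05.

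The abu genes, named for being activated when the unfolded protein response is blocked, had few reads. Of 14 with a row only abu-8 was tested, at 11.3, 3.06 and 4.83 CPM in BPTMC replicates 1, 2 and 3, against 5.87 and 4.65 CPM in DMSO replicates 1 and 2. The groups overlapped and its log2 fold change was 0.29 ± 0.60 (SE, edgeR adjusted p = 0.866). Without BPTMC replicate 1, where again 1 abu gene was tested, the value was -0.35. The other 13 had at most 22 counts in any library.

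**Figure D4:**
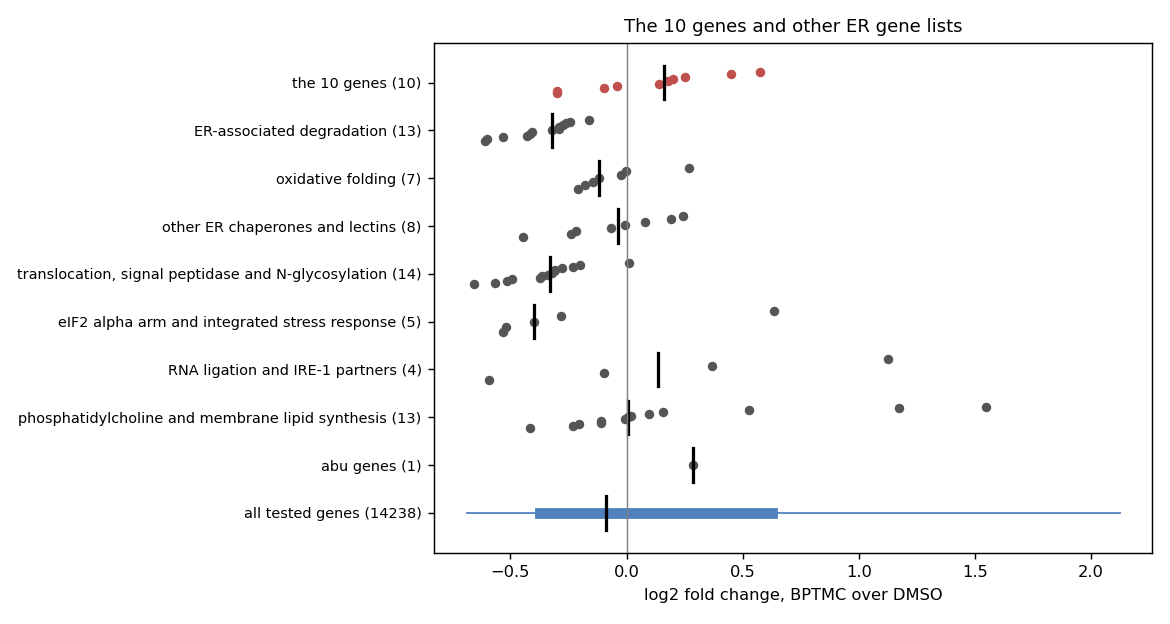
Log2 fold change of BPTMC over DMSO for the 10 genes (red) and for each tested gene of the 8 other ER lists (grey), with list medians as black bars and the number of genes in brackets; the blue line at the bottom spans the percentiles 5 to 95 of all tested genes, thick from 25 to 75. The degradation list, with a median of -0.32, and the translocation and glycosylation list, with -0.33, lie left of 0, and the 2 points furthest right belong to pmt-1 and sbp-1.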

How the data were processed

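Whole-animal RNA was sequenced from 3' tag libraries (Lexogen QuantSeq) made from 500 ng total RNA, per the labels' protocols. The authors deposited raw read counts per gene symbol, 1 table per library. Bowtie2 and bedtools were used with WBcel235, per the submitters' processing notes, and versions, annotation and strand setting are not stated there. Positions and overlaps come from the Ensembl 115 annotation of the same build.

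All 5 libraries entered 1 edgeR 4.0.16 quasi-likelihood fit (R 4.3.3) of BPTMC (n = 3) over DMSO (n = 2) on 14238 genes, with TMM scaling, filterByExpr at a minimum count of 10, non-legacy dispersions and Benjamini-Hochberg adjustment. SE was taken as |log2 fold change| over the square root of F, and 95% intervals use its t quantile. The script was tested on simulated data. The 10 genes and the lists were chosen with earlier results of these data known. Named genes were the 10, up to 2 genes per list with the smallest p, and the 3 genes most like hsp-4 and the 3 most like xbp-1. edem-1, edem-2, edem-3, emo-1, sec-61, atf-5, gadr-1, archease and abu-3 had no row under these symbols, and ckb-3 was not tested. Alternatives were other scalings, filters and thresholds, DESeq2 1.42.0, limma-voom (limma 3.58.1), legacy dispersions together with robust fitting, ribosomal RNA genes left out, each library left out, and a replicate block. Where a single DMSO library remained, its spread was assumed to be that of the BPTMC libraries.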

Additional observations from a re-analysis of the deposited data

How the results depend on the processing

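None of the 10 genes was called under any of the 15 alternatives. Of 139 recomputed log2 fold changes 125 kept their sign and 14 turned. With 1 library left out the values ran from -0.040 to 0.62 for hsp-3, -0.74 to 0.034 for hsp-4, -0.31 to 0.78 for enpl-1, -0.27 to 0.16 for dnj-7, -0.60 to 0.071 for ire-1, -0.12 to 0.21 for atf-6 and -0.24 to 0.56 for ckb-2. dnj-7 was also positive, at 0.020, with at least 5 CPM in 2 or more libraries (a filter that left atf-6 out) and, at 0.080, with the replicate block. crt-1, pek-1 and xbp-1 kept their sign in all 14 refits. The hsp-4 to hsp-3 log2 difference ran from -1.05 to -0.47 with 1 library left out. Over all genes, the 15 higher and 0 lower calls became 65 and 2 without a filter, 238 and 3 by DESeq2, 2 and 0 with total-count scaling or at adjusted p under 0.01, 3 and 0 with the 5 CPM filter or with legacy dispersions and robust fitting together, 4 and 0 without ribosomal RNA genes, 1 and 0 by limma-voom, and 0 to 43 higher with 1 library left out (0 and 43 when BPTMC replicates 3 and 1 were dropped, 6 and 33 when DMSO replicates 2 and 1 were); the cause was not tested. Replicate numbers are shared by the labels only. With the replicate block, which left 1 residual degree of freedom, 1147 of the 14238 tested genes were higher and 599 lower. Among them were 4 of the 65 other ER genes, a smaller share than of all tested genes (pmt-1 higher, and cdc-48.1, cdc-48.2 and ifet-1 lower). xbp-1 was then at 0.70 with an unadjusted p of 0.0285 (edgeR adjusted p = 0.133, and at least 0.133 in every alternative), the 1 value of the 10 genes under 0.05 in any of the 14 refits. Across genes, deviations of same-numbered libraries correlated at 0.73 for number 1 and 0.32 for number 2, but BPTMC replicate 3 and DMSO replicate 2 correlated at 0.60, and with 2 DMSO libraries these values are not independent. Low counts limit atf-6 most, at 46 to 80 per library.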
